A study of Mus musculus with 4 samples.

Results

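The retinoic acid genes described here are 9 genes that make, bind, sense or break down retinoic acid, out of 21965 genes with a usable value in sciatic nerve RNA. They are the synthetic enzymes Aldh1a1, Aldh1a2 and Aldh1a3, the binding proteins Crabp1 and Crabp2, the receptors Rara, Rarb and Rarg, and the degrading enzyme Cyp26b1. The set was chosen by the FPKM values of Aldh1a1, which were far higher in the Zeb2 cKO library, so the difference between the libraries is a description for all 9 and supports nothing by itself. Nerves came from Zeb2 cKO mice and from Control mice, all at postnatal day 7 and on a mixed strain background, and each sample was RNA from pooled sciatic nerves. Here cKO stands for a conditional knockout of Zeb2, a zinc finger transcription factor, and the labels name neither the Cre driver nor the deleted exons. The labels describe 2 samples per group, and the tables used here hold 1 library per group. Levels below are therefore single values, written as those of Zeb2 cKO nerves and of Control nerves, and differences are given by size and with counting intervals (95%), which cover counting error only, with no test between the conditions.

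Retinoic acid is made from vitamin A. Retinol enters cells through the receptor STRA6, is oxidised to retinal by enzymes such as RDH10, and is then oxidised irreversibly to retinoic acid by the ALDH1A enzymes. CRABP proteins carry retinoic acid within the cell, CYP26 enzymes hydroxylate and clear it, and the receptors RARα, RARβ and RARγ bind response elements in DNA as heterodimers with RXRs. In the peripheral nervous system the pathway is best known from axon growth and from the patterning of the neural crest, from which Schwann cells arise.

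Upstream sequences were available from RefSeq (build GRCm38.p6) for 7 of the 9 genes, each running from 250 bases before to 50 bases after an annotated start. Those of Aldh1a1 and of Aldh1a7, a neighbouring gene of high sequence similarity, are shown because these genes had the largest ratios of the aldehyde dehydrogenases, and the Rarb window is shown because it holds the retinoic acid response element for which this promoter is known. Capitals mark CACCTG on either strand, the E-box that Zeb family proteins bind, in the Aldh1a1 and Aldh1a7 windows. In the Rarb window they mark a direct repeat with 5 bases between its hexamers, searched on both strands, where each hexamer may be AGGTCA or AGTTCA or GGGTCA or GGTTCA. The positions below are on GRCm38.p6, 5′ to 3′.

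Aldh1a1, chr19:20601718-20602017 (+ strand): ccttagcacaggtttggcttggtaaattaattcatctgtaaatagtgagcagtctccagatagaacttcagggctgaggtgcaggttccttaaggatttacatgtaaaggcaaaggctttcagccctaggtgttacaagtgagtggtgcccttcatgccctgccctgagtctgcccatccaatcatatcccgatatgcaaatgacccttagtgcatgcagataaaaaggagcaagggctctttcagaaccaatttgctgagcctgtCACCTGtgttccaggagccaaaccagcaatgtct

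Aldh1a7, chr19:20727507-20727806 (- strand): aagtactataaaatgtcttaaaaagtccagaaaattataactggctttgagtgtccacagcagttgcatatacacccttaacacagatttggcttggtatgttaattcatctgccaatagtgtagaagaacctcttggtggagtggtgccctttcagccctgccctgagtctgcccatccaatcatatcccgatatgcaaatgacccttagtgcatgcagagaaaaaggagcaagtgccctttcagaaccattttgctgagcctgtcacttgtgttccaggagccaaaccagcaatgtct

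Rarb, chr14:16575427-16575726 (- strand): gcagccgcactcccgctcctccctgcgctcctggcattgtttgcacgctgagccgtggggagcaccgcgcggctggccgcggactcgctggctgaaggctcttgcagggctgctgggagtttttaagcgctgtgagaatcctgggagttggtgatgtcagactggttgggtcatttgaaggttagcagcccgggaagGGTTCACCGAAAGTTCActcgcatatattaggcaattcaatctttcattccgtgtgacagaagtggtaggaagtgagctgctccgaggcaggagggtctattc

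In an alignment of these windows, 208 of 225 aligned bases of the Aldh1a1 and Aldh1a7 windows were identical (92.4%). The Aldh1a1 window holds 1 CACCTG, 16 bases after the start, and the Aldh1a7 window holds none and so has no capitals. The annotated start within the Aldh1a1 window shown lies 7 bases from the start of the table's transcript. Another Aldh1a1 window, farther upstream, also holds a CACCTG. This E-box is common, occurring in 20.2% of 32851 windows of the same length, and it was also found in windows of Aldh1a2, Rara and Rarg. The Rarb element begins 53 bases before the annotated start, which lies 67 bases from the start of the table's transcript. A repeat of this kind was found in 0.0974% of the windows. Of the 7 genes with a window, Rarb alone held this repeat. A match describes letters in a window and shows no binding.

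Estimated reads numbered 20180394 in the Zeb2 cKO library and 29616050 in the Control library, on a scale where 1 read adds 52.6 bases of coverage. Zeb2 itself had 19.5 FPKM in Zeb2 cKO nerves and 34.4 FPKM in Control nerves. The ratio was 0.568, and since the labels name no deleted exons, this value over the whole transcript is a partial check of the genotype. FPKM is the number of fragments scaled to transcript length and to library size, so levels of different genes can be compared. Of 12903 genes with a mean of at least 1 FPKM, 8.59% passed 2-fold upward and 6.25% passed it downward in Zeb2 cKO nerves, counted on the log2(FPKM + 1) scale. The median log2 ratio of these genes was 0.18, and it was -0.0012 after the Zeb2 cKO values were scaled down by the ratio of the median gene. With that scaling 6.06% of genes passed 2-fold upward and 7.44% passed it downward. In bulk tissue, fewer cells of a type and less RNA per cell cannot be told apart.

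All 9 genes passed the filter of 1 FPKM, and 2 of them, Aldh1a1 and Crabp2, were 2-fold or more higher in Zeb2 cKO nerves, where the background is 8.59% of genes. None was 2-fold or more lower, where the background is 6.25%. Of the remaining 7, 6 had log2 ratios between 0.42 and 0.94, and Aldh1a2 had a log2 ratio of -0.23. The median log2 ratio of the 9 was 0.64, against 0.18 for all measured genes, and 8 of 9 lay above the median gene. Since the choice of genes used this contrast, nothing is read from these counts.

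**Figure D1:**
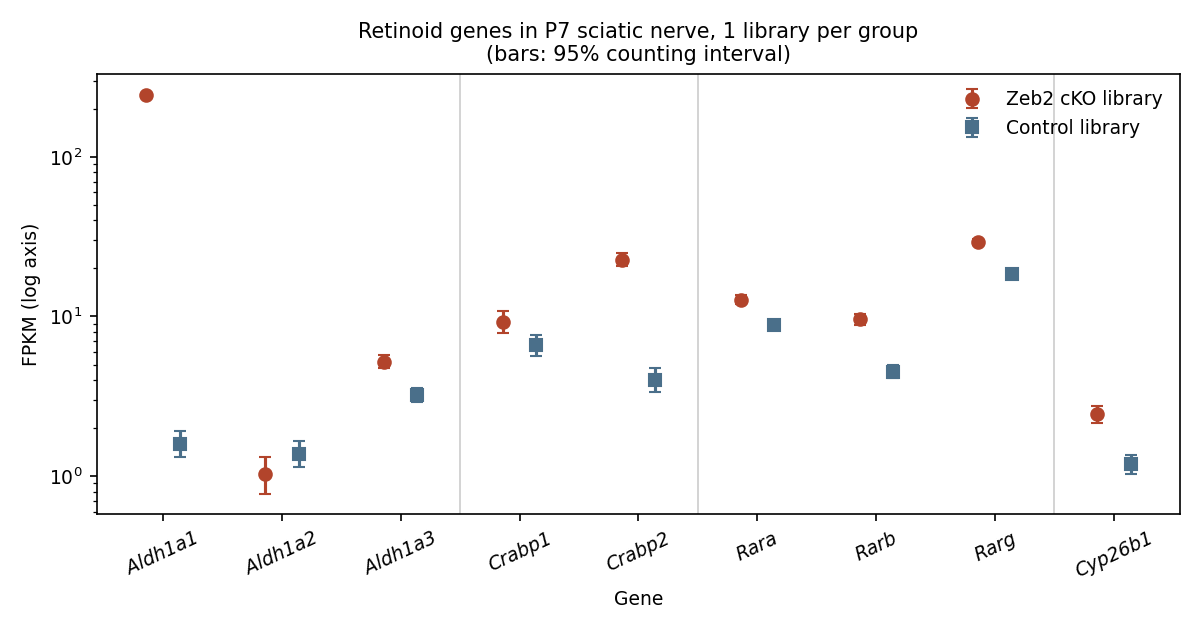
FPKM of the 9 genes (log axis) in Zeb2 cKO nerves (circles, left of each pair) and in Control nerves (squares), with counting intervals of 95% as bars. Aldh1a1 stands at 244 FPKM in Zeb2 cKO nerves and 1.60 FPKM in Control nerves, while the other 8 genes lie between 1.03 and 29.2 FPKM in Zeb2 cKO nerves and between 1.19 and 18.3 FPKM in Control nerves.

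Among the synthetic enzymes, the balance between the 3 isoenzymes differed between the libraries. Aldh1a1, a cytosolic retinal dehydrogenase (chromosome 19, 20676472 to 20717952, mm9), was at 244 FPKM in Zeb2 cKO nerves, against 1.60 FPKM in Control nerves. These values rest on an estimated 12030 reads in Zeb2 cKO nerves and 115 in Control nerves. The ratio was 153 with a counting interval of 127 to 185. By level Aldh1a1 held rank 228 of 21965 genes in Zeb2 cKO nerves and rank 11634 in Control nerves, and 13 measured genes had a larger log2 ratio.

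Aldh1a3, the isoenzyme known from the developing eye and nasal region (chromosome 7, 73535779 to 73572363), was at 5.22 FPKM in Zeb2 cKO nerves, against 3.23 FPKM in Control nerves. The ratio was 1.62, with an interval of 1.41 to 1.86. Aldh1a2, the main source of retinoic acid in the early embryo (chromosome 9, 71063596 to 71144050), was low in both, at 1.03 FPKM in Zeb2 cKO nerves and 1.37 FPKM in Control nerves. Its ratio of 0.749 had an interval of 0.533 to 1.04, so as deposited this depth does not separate the libraries for Aldh1a2. It was the only one of the 9 genes whose interval included 1 on the deposited scale. Scaling to the median gene moved the log2 ratio of Aldh1a2 from -0.23 to -0.33 and that of Crabp1 from 0.42 to 0.23. Intervals were not recomputed on that scale, so which of them include 1 depends on the scaling.

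Summed over the 3 isoenzymes, the level was 251 FPKM in Zeb2 cKO nerves and 6.20 FPKM in Control nerves. Aldh1a1 made up 97.5% of that sum in Zeb2 cKO nerves and 25.8% in Control nerves, where Aldh1a3 held the largest share, 52.1%. In the Control library Aldh1a1 (1.60 FPKM), Aldh1a2 (1.37 FPKM) and Cyp26b1 (1.19 FPKM) were the lowest of the 9 genes, and neighbours in that order had overlapping counting intervals.

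Aldh1a7, which lies beside Aldh1a1 on chromosome 19 (20767443 to 20802046) and is a near copy of it, was at 59.1 FPKM in Zeb2 cKO nerves, against 2.36 FPKM in Control nerves. The ratio was 25.1, with an interval of 21.5 to 29.4. The transcripts of these neighbours matched at 89.6% of aligned bases, against 67.2% between Aldh1a1 and Aldh1a2 and 65.4% between Aldh1a1 and Aldh1a3. Of the 2004 stretches of 50 bases in the Aldh1a1 transcript, 151 (7.53%) also occur in that of Aldh1a7, so reads from these stretches could be split between the genes and the share of each is uncertain. No such stretch of Aldh1a1 occurred in another annotated mouse transcript. Their summed level depends little on the split, and was 303 FPKM in Zeb2 cKO nerves, against 3.96 FPKM in Control nerves, a ratio of 76.7. Aldh1a1 was 80.5% of that sum in Zeb2 cKO nerves and 40.4% in Control nerves.

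Of 13 measured members of the wider family outside the 3 isoenzymes, 1 (Aldh1a7) was 2-fold or more higher and 1 (Aldh3b1) was lower. These counts stand beside 8.59% of all measured genes higher and 6.25% lower. Aldh3b1, which oxidises medium and long-chain aldehydes, was at 6.22 FPKM in Zeb2 cKO nerves and 13.5 FPKM in Control nerves, a log2 ratio of -1.01. The median log2 ratio of the 13 was -0.08, below the 0.18 of all measured genes. Aldh2, the mitochondrial enzyme that clears acetaldehyde and the most abundant of the 13 in Control nerves, was at 54.4 FPKM in Zeb2 cKO nerves and 70.6 FPKM in Control nerves. Aldh1l1, a folate enzyme used as an astrocyte marker, was at 1.58 FPKM in Zeb2 cKO nerves and 2.13 FPKM in Control nerves.

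By distance on the log2(FPKM + 1) scale over both libraries, the genes nearest to Aldh1a1 were Gfap (distance 0.53), Slc1a3 (0.60), Prss35 (0.98), Smoc1 (1.60) and Col9a1 (1.61). Gfap, a glial intermediate filament, was at 300.1 FPKM in Zeb2 cKO nerves and 0.914 FPKM in Control nerves. Slc1a3, which takes up glutamate into glia, was at 306 FPKM in Zeb2 cKO nerves and 2.68 FPKM in Control nerves. The remaining 3 were between 79.7 and 185 FPKM in Zeb2 cKO nerves and between 1.18 and 3.84 FPKM in Control nerves. With 1 library per group this likeness rests on 2 values per gene.

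**Figure D2:**
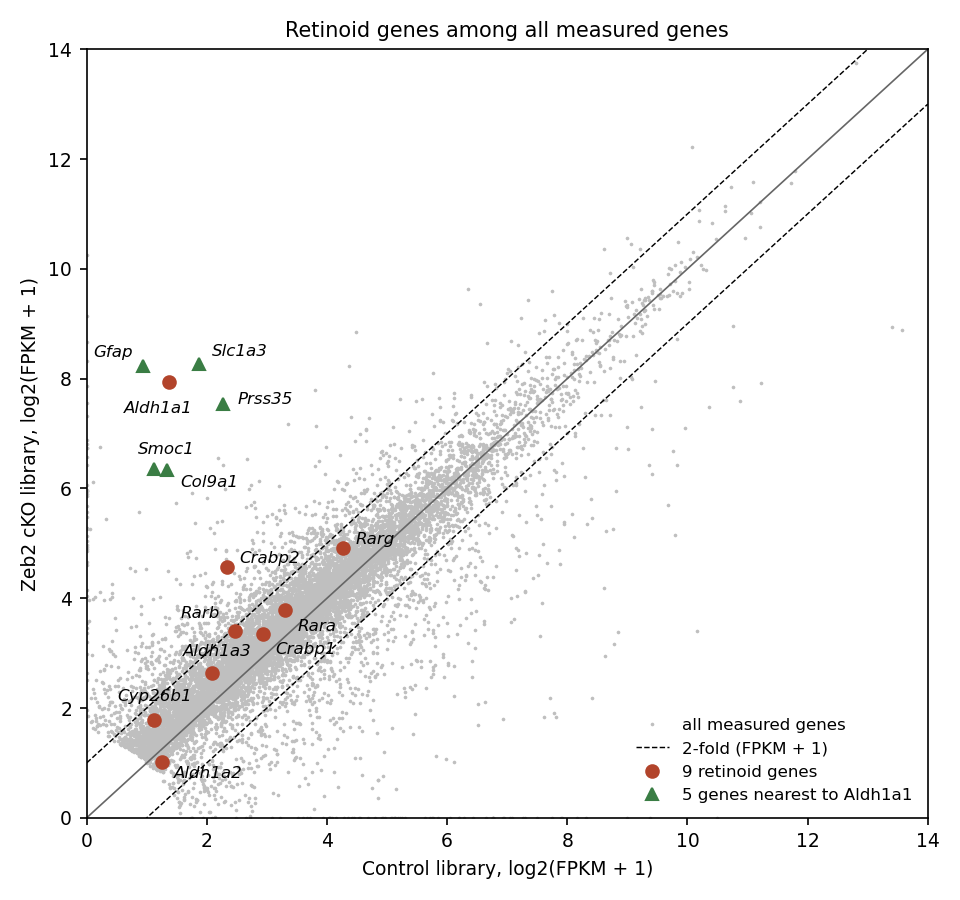
Level in Zeb2 cKO nerves (vertical) against the Control library (horizontal), both as log2(FPKM + 1), for all measured genes (grey), the 9 retinoid genes (circles) and the 5 genes nearest to Aldh1a1 (triangles); the solid line marks equal levels and the dashed lines a 2-fold difference. Aldh1a1 and Crabp2 lie above the upper dashed line, and Rarb lies just below it at a log2 ratio of 0.94.

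The binding proteins stood in the opposite order in the 2 libraries. Crabp2, which delivers retinoic acid to nuclear receptors (chromosome 3, 87752615 to 87757294), was at 22.7 FPKM in Zeb2 cKO nerves, against 4.02 FPKM in Control nerves. The ratio was 5.65, with an interval of 4.65 to 6.92. Crabp1, a cytosolic carrier of retinoic acid (chromosome 9, 54612615 to 54620916), was at 9.25 FPKM in Zeb2 cKO nerves, against 6.65 FPKM in Control nerves, a ratio of 1.39 with an interval of 1.12 to 1.73. Crabp2 was thus 2.46 times as high as Crabp1 in Zeb2 cKO nerves and 0.604 times as high in Control nerves. Fabp5, a fatty acid-binding protein that can also carry retinoic acid and pass it to PPARδ, was lower, at 40.5 FPKM in Zeb2 cKO nerves and 98.6 FPKM in Control nerves. Its ratio was 0.410, with an interval of 0.381 to 0.442. Ppard, which encodes PPARδ, was at 10.9 FPKM in Zeb2 cKO nerves and 8.45 FPKM in Control nerves.

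All 3 retinoic acid receptors were detected well above the filter, and none reached 2-fold on the log2(FPKM + 1) scale. Rarg (chromosome 15, 102065371 to 102087914) was the highest of the 3 in both libraries, at 29.2 FPKM in Zeb2 cKO nerves and 18.3 FPKM in Control nerves, a ratio of 1.59 with an interval of 1.49 to 1.70. Rara (chromosome 11, 98799010 to 98836256) was at 12.8 FPKM in Zeb2 cKO nerves, against 8.83 FPKM in Control nerves, a ratio of 1.45 with an interval of 1.32 to 1.58. Rarb (chromosome 14, 17263354 to 17407724), itself a classical target of retinoic acid through the element shown above, was at 9.59 FPKM in Zeb2 cKO nerves and 4.51 FPKM in Control nerves. Its plain ratio was 2.13, with an interval of 1.88 to 2.41, and its log2 ratio on the pseudocount scale was 0.94, just under 2-fold.

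The sum of the 3 receptors was 51.5 FPKM in Zeb2 cKO nerves and 31.7 FPKM in Control nerves. Their proportions were close. Rarg made up 56.6% of the sum in Zeb2 cKO nerves and 57.9% in Control nerves. Rara made up 24.8% in Zeb2 cKO nerves and 27.9% in Control nerves, and Rarb 18.6% in Zeb2 cKO nerves and 14.2% in Control nerves.

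The tables list 4 transcript rows for Rara and 2 for Rarg. The Rara row with the downstream start at 98821785 was at 6.67 FPKM in Zeb2 cKO nerves and 4.58 FPKM in Control nerves, which was 52.2% of the gene in Zeb2 cKO nerves and 51.9% in Control nerves. The other 3 rows start within 98799010 to 98801025 and together were at 6.10 FPKM in Zeb2 cKO nerves and 4.25 FPKM in Control nerves. Within these 3, the row starting at 98799010 held 5.89 FPKM in Zeb2 cKO nerves and 1.38 FPKM in Control nerves, and the row starting at 98801025 held 0.0014 FPKM in Zeb2 cKO nerves and 2.87 FPKM in Control nerves. Rows that share most of their exons can trade reads in the authors' estimate, and these 2 differed in opposite directions while the sum of all 3 had a log2 ratio of 0.44, so the split among them is uncertain. For Rarg, the longer row, which reaches 102087914, was at 8.65 FPKM in Zeb2 cKO nerves and 3.26 FPKM in Control nerves, a ratio of 2.65 with an interval of 2.32 to 3.04. The shorter row, which reaches 102076783, was at 20.5 FPKM in Zeb2 cKO nerves and 15.1 FPKM in Control nerves, a ratio of 1.36 with an interval of 1.26 to 1.47. The longer row held 29.7% of Rarg in Zeb2 cKO nerves and 17.8% in Control nerves. The 2 Rarg rows overlap as well, both beginning at 102065371, and the counting intervals leave out any trade of reads between them. Their split is therefore uncertain too.

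**Figure D3:**
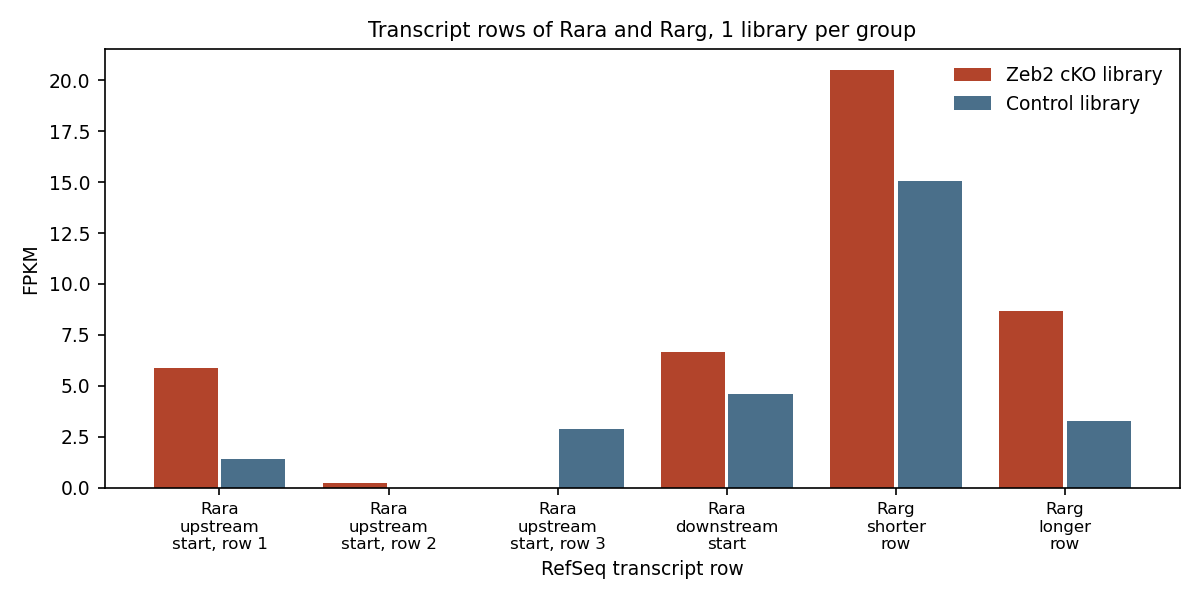
FPKM of each RefSeq transcript row of Rara and Rarg in Zeb2 cKO nerves (left bar) and in Control nerves (right bar), 1 library per group. The Rara rows with upstream starts differ in opposite directions, and both Rarg rows are higher in Zeb2 cKO nerves, with 8.65 FPKM in Zeb2 cKO nerves and 3.26 FPKM in Control nerves for the longer row. The split of reads between overlapping rows of a gene is uncertain.

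Of the RXRs, with which RARs pair, Rxrg was the one that passed 2-fold. It was at 1.31 FPKM in Zeb2 cKO nerves, against 9.81 FPKM in Control nerves, a ratio of 0.134 with an interval of 0.102 to 0.173. The log2 ratio of Rxrg was -2.23, and -1.79 when only its highest row was used. Rxra was at 12.7 FPKM in Zeb2 cKO nerves and 12.3 FPKM in Control nerves, and Rxrb was at 21.9 FPKM in Zeb2 cKO nerves and 19.1 FPKM in Control nerves. The log2 ratios of Rxra and Rxrb were 0.05 and 0.19 as deposited, and -0.15 and -0.01 after scaling to the median gene, so neither has a direction that holds under both. The 3 RXRs summed to 36.0 FPKM in Zeb2 cKO nerves and 41.2 FPKM in Control nerves.

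Of 10 measured genes among the RXRs and their other partners, 1 was 2-fold or more higher and 2 were lower, beside 8.59% and 6.25% of all measured genes. After scaling to the median gene 0 were higher and 2 lower, beside 6.06% and 7.44%. Nr1h3, the oxysterol receptor LXRα, was at 4.49 FPKM in Zeb2 cKO nerves and 1.52 FPKM in Control nerves, a log2 ratio of 1.12 that was 0.95 after scaling to the median gene and 0.76 when only its highest row was used. Nr4a2, an orphan receptor that can pair with RXRs, was at 6.16 FPKM in Zeb2 cKO nerves and 19.4 FPKM in Control nerves, a log2 ratio of -1.51. The median of the 10 was 0.25, close to the 0.18 of all measured genes.

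Of the 3 CYP26 enzymes, Cyp26b1 alone passed the filter of 1 FPKM. Cyp26b1 (chromosome 6, 84521408 to 84543902) was at 2.44 FPKM in Zeb2 cKO nerves, against 1.19 FPKM in Control nerves, from an estimated 278 reads in Zeb2 cKO nerves and 198 in Control nerves. Its plain ratio was 2.06 with an interval of 1.71 to 2.48, and its log2 ratio with the pseudocount was 0.65. Over 99% of Cyp26b1 was assigned to 1 of its 2 rows in each library. Cyp26a1 was at 0.028 FPKM in Zeb2 cKO nerves and 0.019 FPKM in Control nerves, about 1 read in each. Cyp26c1 was at 0.041 FPKM in Zeb2 cKO nerves (about 2 reads) and 0.050 FPKM in Control nerves (about 3 reads), so no difference in either was detectable at this depth. Cyp1b1 and Cyp2s1, cytochromes with broader substrates, were at 8.07 and 11.6 FPKM in Zeb2 cKO nerves and at 2.78 and 4.06 FPKM in Control nerves, with ratios of 2.91 and 2.85.

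By level, the 9 genes were ordered Aldh1a1, Rarg, Crabp2, Rara, Rarb, Crabp1, Aldh1a3, Cyp26b1 and Aldh1a2 in Zeb2 cKO nerves. In the Control library the order was Rarg, Rara, Crabp1, Rarb, Crabp2, Aldh1a3, Aldh1a1, Aldh1a2 and Cyp26b1. In the Zeb2 cKO library the counting intervals of neighbours in this order overlapped only for Rarb and Crabp1. In the Control library they overlapped for Rarb and Crabp2, Crabp2 and Aldh1a3, Aldh1a1 and Aldh1a2, and Aldh1a2 and Cyp26b1.

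Upstream of retinoic acid synthesis, 3 of 7 measured genes of retinol uptake, carriage and storage were 2-fold or more higher in Zeb2 cKO nerves. Stra6, the cell surface receptor that takes up retinol, was at 10.6 FPKM in Zeb2 cKO nerves and 1.51 FPKM in Control nerves, a ratio of 7.02 with an interval of 5.88 to 8.43. The log2 ratio of Stra6 was 2.21, and 1.79 when only its highest row was used. Rlbp1, a carrier of retinal best known from the retina, was at 5.53 FPKM in Zeb2 cKO nerves and 0.226 FPKM in Control nerves, a ratio of 24.4 with an interval of 15.2 to 41.8 that rests on about 18 reads in Control nerves. Rbp4, the blood carrier of retinol, was at 3.38 FPKM in Zeb2 cKO nerves and 3.16 FPKM in Control nerves, with an interval of the ratio that includes 1 and a log2 ratio of 0.07 that was -0.09 after scaling to the median gene. Of the 15 genes on this list 14 had a row, and none of the 7 measured was 2-fold or more lower. The 3 higher genes stand beside 8.59% of all measured genes, and after scaling to the median gene 2 were higher, beside 6.06%. The median log2 ratio of the 7 was 0.91.

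None of the 10 measured retinol and retinal oxidoreductases was 2-fold apart, beside 8.59% of all measured genes higher and 6.25% lower. Rdh10, the main retinol dehydrogenase of retinoic acid synthesis in the embryo, was at 13.3 FPKM in Zeb2 cKO nerves, against 6.27 FPKM in Control nerves, with a plain ratio of 2.13 and a log2 ratio of 0.98 on the pseudocount scale. Dhrs3, which turns retinal back into retinol, was at 43.3 FPKM in Zeb2 cKO nerves, against 23.8 FPKM in Control nerves. The log2 ratio of Dhrs3 was 0.84, and 1.01 when only its highest row was used. Rdh11, another retinal reductase, was at 12.3 FPKM in Zeb2 cKO nerves, against 23.2 FPKM in Control nerves, a log2 ratio of -0.86 that was -1.06 after scaling to the median gene. The median of the 10 was 0.31.

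The coregulators of RARs differed little as a list, with a median log2 ratio of 0.18 over 18 measured genes, the same to 2 decimals as that of all measured genes. Nr2f2, an orphan receptor that can compete with RARs for response elements, was the only one 2-fold apart, at 105 FPKM in Zeb2 cKO nerves and 36.5 FPKM in Control nerves, a ratio of 2.89 with an interval of 2.80 to 2.98. Its relative Nr2f1 was at 20.0 FPKM in Zeb2 cKO nerves and 33.6 FPKM in Control nerves, a log2 ratio of -0.72. The corepressor Ncor1 had a log2 ratio of 0.18. The 1 of 18 that was higher stands beside 8.59% of all measured genes.

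**Figure D4:**
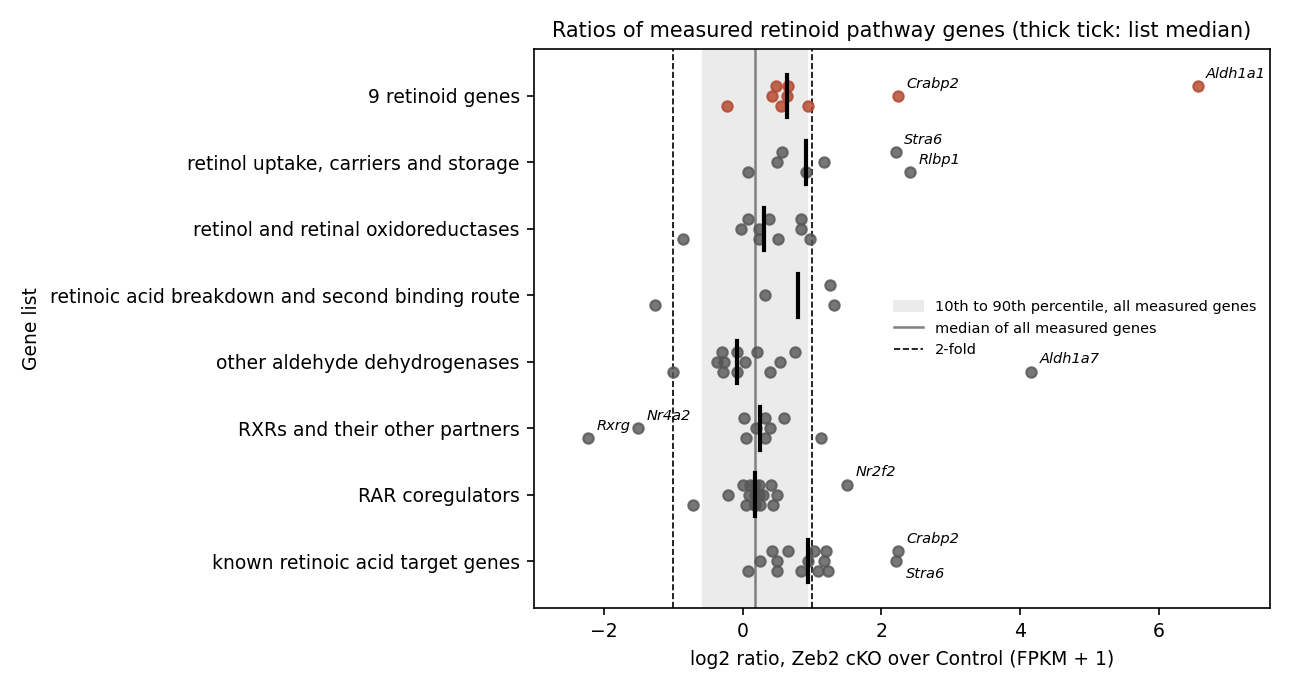
Log2 ratio of Zeb2 cKO over Control, from FPKM + 1, for each measured gene (points) of the 9 retinoid genes and of 7 lists of the pathway, with the median of each list as a thick tick. The shaded band spans the 10th to 90th percentile of all measured genes (-0.57 to 0.92), the grey line their median (0.18), and dashed lines mark 2-fold; Aldh1a1 (6.56) and Aldh1a7 (4.16) have the highest ratios of these genes and Rxrg (-2.23) the lowest.

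Genes known as targets of retinoic acid in other tissues had a median log2 ratio of 0.94 over 15 measured of 22 listed, of which 7 were 2-fold or more higher, beside 8.59% of all measured genes, and 0 lower. Of these 15, 3 are among the 9 genes of the choice (Rarb, Crabp2 and Cyp26b1), and without them 6 of 12 were higher, with a median of 0.93. After scaling to the median gene 3 of the 12 were, beside 6.06% of all measured genes, and Tgm2 and Hoxb5 were among those that no longer passed 2-fold. Tgm2, tissue transglutaminase, was at 33.2 FPKM in Zeb2 cKO nerves and 15.03 FPKM in Control nerves. Meis2, a homeodomain transcription factor, was at 3.55 FPKM in Zeb2 cKO nerves and 0.983 FPKM in Control nerves, a ratio of 3.62. Hoxb5 was at 3.11 FPKM in Zeb2 cKO nerves and 1.01 FPKM in Control nerves. Listed targets under the filter included Cyp26a1, Hoxb1 and Stra8. Hoxb1 was listed at 0 in both libraries, and Stra8 and Cdx1 were listed at 0 in Zeb2 cKO nerves.

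Markers of the cell types of the nerve differed between the libraries beside these genes, and their part in the values above was not tested. Sums are over all genes of a list with a row, and counts are over its measured genes, to be read beside the 8.59% of all measured genes that were higher and the 6.25% that were lower, or 6.06% and 7.44% after scaling to the median gene. All 9 myelin markers passed 2-fold downward with and without that scaling, summing to 1238 FPKM in Zeb2 cKO nerves and 26746 FPKM in Control nerves. All 11 skeletal muscle markers did so too, summing to 760 FPKM in Zeb2 cKO nerves and 6448 FPKM in Control nerves. Schwann lineage markers summed to 498 FPKM in Zeb2 cKO nerves and 1986 FPKM in Control nerves, with 5 of 8 lower and 1, Cdh19, higher. After scaling, 6 were lower and 0 higher. Astroglia-like markers, which include the Gfap and Slc1a3 named above, summed to 853 FPKM in Zeb2 cKO nerves and 262 FPKM in Control nerves, with 3 of 7 higher and 2 lower in both cases. Of these 2, S100b is also on the Schwann lineage list, and was at 42.5 FPKM in Zeb2 cKO nerves and 188 FPKM in Control nerves.

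Fibroblast markers summed to 9512 FPKM in Zeb2 cKO nerves and 5727 FPKM in Control nerves, with 6 of 13 higher, or 3 after scaling. Perineurial markers summed to 373 FPKM in Zeb2 cKO nerves and 164 FPKM in Control nerves, with 5 of 10 higher, or 4 after scaling. Adipocyte markers summed to 529 FPKM in Zeb2 cKO nerves and 218 FPKM in Control nerves, with 4 of 6 higher, or 2 after scaling. Pericyte and smooth muscle markers summed to 335 FPKM in Zeb2 cKO nerves and 307 FPKM in Control nerves, with 2 of 9 higher, or 0 after scaling, and 1 lower in both cases. Endothelial markers summed to 282 FPKM in Zeb2 cKO nerves and 173 FPKM in Control nerves, and macrophage markers to 127 FPKM in Zeb2 cKO nerves and 134 FPKM in Control nerves. Neuronal markers summed to 42.7 FPKM in Zeb2 cKO nerves and 45.2 FPKM in Control nerves. None of the 10 endothelial, 10 macrophage and 6 neuronal markers that were measured was 2-fold apart, with or without scaling. Melanocyte markers summed to 6.10 FPKM in Zeb2 cKO nerves and 20.4 FPKM in Control nerves, with 2 of 3 lower, or 3 after scaling, and Mlana was listed at 0 in Control nerves. Skin markers summed to 3.41 FPKM in Zeb2 cKO nerves and 3.05 FPKM in Control nerves over 6 genes, of which 1 was measured and within 2-fold, and Lor was listed at 0 in Control nerves.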

How the data were processed

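Sciatic nerve RNA was extracted with Trizol and made into libraries with an Illumina TruSeq kit, per the labels' protocols. The submitters' processing notes name CASAVA, TopHat, Cufflinks and Cuffdiff and the build mm9, without versions. Per the file headers, a row is 1 RefSeq transcript with its locus, its length, a coverage, an FPKM and a status. FPKM is the authors' Cufflinks estimate. Coverage, a deposited signal, is read depth averaged over the transcript, and in each table it was a fixed multiple of FPKM. Because a table is named under both samples of a group, it was given to the group and not to a numbered sample.

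Rows with status OK in both tables were kept (295 of 28107 left out) and summed by symbol. Ratios are log2((Zeb2 cKO FPKM + 1)/(Control FPKM + 1)), which understates the change of low genes, for genes with a mean of at least 1 FPKM, and plain ratios are of FPKM. Reads were estimated as coverage times length over 52.6 bases, the median of the lowest cluster of 481 such values (10th to 90th percentile 46.6 to 60.4). Intervals are exact Poisson for levels and Clopper-Pearson for ratios (scipy 1.17.1). They are approximate, because these reads are estimates. With 1 library per group there is no test. The calling and interval code was tested on simulated counts. The labels do not say whether reads were assigned by strand, and none of the 9 genes overlaps another symbol in the tables.

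The genes and lists were chosen with earlier results of these data known. Genes named are Zeb2, the 9 members, list genes 2-fold apart, 12 further pathway genes, and the 5 nearest to Aldh1a1, leaving aside small RNAs and antigen receptor segments. Lists with fewer than 2 genes 2-fold apart were filled up to 2 by the largest remaining absolute log2 ratios. Identities are of aligned bases, gaps left out, from a global alignment with free end gaps (Biopython). Genes named outside this rule (Aldh2, Aldh1l1, Ppard, Ncor1, Cdh19, S100b, Mlana, Lor and the genes listed as unmeasured) were chosen after their values were seen. Of each marker list the sum and the counts are given in place of the 2 genes that the rule names. Promoter windows came from RefSeq on GRCm38.p6 and transcripts from GENCODE on the same assembly. No coordinates were converted. A few list genes count in the list totals but are not reported here by name. The alternatives were other pseudocounts, filters, scalings, thresholds, statuses and the top row of each symbol.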

Additional observations from a re-analysis of the deposited data

How the results depend on the processing

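Aldh1a1 and Crabp2 were 2-fold or more higher under all 8 ways of computing the values, with log2 ratios of 5.24 to 7.17 for Aldh1a1 and 1.62 to 2.47 for Crabp2. These 8 include the main one. For both genes, which have 1 row each, rows of every status and the top row repeat the main values. Coverage is a fixed multiple of FPKM, so dividing it by its median only rescales. The direction of each of the 9 genes held under the same 8, with Aldh1a2 below 0 each time. Filters on low values change no ratio, and at a mean of at least 5 FPKM 6 of the 9 genes were measured. Rarb passed 2-fold only with a pseudocount of 0.1 (log2 ratio 1.07), which made 3 of the 9 genes higher, beside 1558 of 12903 measured genes. A threshold of 1.5-fold made 5 of the 9 genes higher, beside 2537 of 12903. Counts over all genes, 1109 higher and 806 lower, became 477 and 529 with a pseudocount of 5, 2537 and 1266 at 1.5-fold, and 221 and 318 at 4-fold, and with a mean of at least 5 FPKM the higher count became 739. Scaling to the median gene gave 782 higher and 960 lower, to the upper quartile 944 and 876, and dividing coverage by its median 805 and 940. Of the ratios of single named genes, 1 for each gene and each of the other 7 ways, 159 moved by more than their counting interval, 282 did not, and none that was 2-fold apart changed sign. The 282 include ratios that could not move. Rows of every status returned the main value of every named gene, as did the top row for genes with 1 row. Counts of the pathway and marker lists after scaling to the median gene were added after their values were seen. No paired analysis was possible because neither group has a second library here, and none could be left out for the same reason. Depth limits the values of genes with few reads, such as Aldh1a2, Cyp26a1 and Cyp26c1.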
